A study of Glycine max with 6 samples.

Results

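Of the 37561 genomic regions in which both libraries of one antibody (Ab1) held a peak of chromatin bound by the soybean protein GLYMA.04G093300, 10132 (27.0%) held a peak in exactly 1 of the 2 libraries of a second antibody (Ab2). These regions were chosen by merging the peak intervals of the 4 immunoprecipitated libraries wherever they shared 1 base or more, which gave 64222 regions in all, and by keeping those with a peak in both Ab1 lists and in a single Ab2 list. They fell into 7211 regions with the peak in Ab2 replicate 1 (the replicate 1 subset, 71.2% of the members, 95% Wilson interval 70.3 to 72.0) and 2921 with the peak in Ab2 replicate 2 (the replicate 2 subset, 28.8%, 28.0 to 29.7). The members covered 5.06 Mb, and 46 of them lay on scaffolds outside the 20 chromosomes. The other regions of both Ab1 libraries were the 15473 with a peak in both Ab2 libraries, called regions of all 4 libraries, and the 11956 with none in Ab2. Presence of a peak chose the members, so the fold enrichments and p-values of these lists are given as descriptions, with no test.

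In chromatin immunoprecipitation and sequencing (ChIP-seq), protein and DNA are fixed together, the chromatin is sheared, and an antibody pulls down the fragments that carry the protein. Fragments pile up where the protein sat, and a peak caller reports an interval when the pile-up exceeds the local background of unselected chromatin, the input. Each antibody recognizes one stretch of the protein, so antibodies to separate stretches give partly independent views of the same binding.

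Chromatin was taken from formaldehyde-fixed early-maturation embryos of the soybean cultivar Williams 82, whose seeds measured 6 to 7 mm; at this stage storage of reserves begins. Ab1 and Ab2 were raised to different peptides of the protein, each biological replicate was precipitated with both, and every group holds 2 libraries, the input included, or 6 libraries in all. With neither a control antibody nor embryos lacking the protein among them, specific and unspecific precipitation cannot be told apart. The 4 peak lists held 59261 and 44181 peaks for Ab1 replicates 1 and 2, and 28010 and 21291 for Ab2 replicates 1 and 2. Read totals were not used here. The fragments at each summit, recovered from the fold and p of the peak, had medians of 26 (replicate 1) and 35 (replicate 2) for Ab1 peaks and of 19 and 18 for Ab2 peaks. Ab1 replicate 2 stood apart in that its pile-up had been scaled by 0.881. The names of its peaks also carry a tag that the labels do not explain. Intervals on shares cover counting error only, and regions are not replicates of a condition.

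Members were mostly regions of middle strength in Ab1. When the regions of both Ab1 libraries were cut into 10 equal classes by mean Ab1 fold enrichment over the background, members made up 19.2% of the weakest class (95% Wilson interval 18.0 to 20.5), 42.3% of class 5 (40.7 to 43.8) and 0.852% of the strongest (0.604 to 1.20). Class 5 spanned mean folds of 4.69 to 5.06. In that class 24.2% of the regions had a peak in both Ab2 libraries and 33.5% in neither. With both subsets pooled, recovery by 1 library was the most frequent outcome there. Either subset alone was less frequent than regions with a peak in neither. The replicate 1 subset peaked in class 5 at 30.0% of regions, and the replicate 2 subset held 12.2% of each of classes 4, 5 and 6. The make-up of the members also varied with strength. The replicate 1 subset was 64.6% of the members in the weakest class, 77.5% in class 9 and 90.6% of the 32 members in the strongest. The number of members depended on the length of the lists. It was 3204 with every list cut to its 21291 strongest peaks by p, where the replicate 1 subset made up 51.9%. With a −log10 q of at least 10 it was 4717. Both settings shortened the Ab1 lists too. These counts therefore do not show how the share of members among regions of both Ab1 libraries changed.

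**Figure D1:**
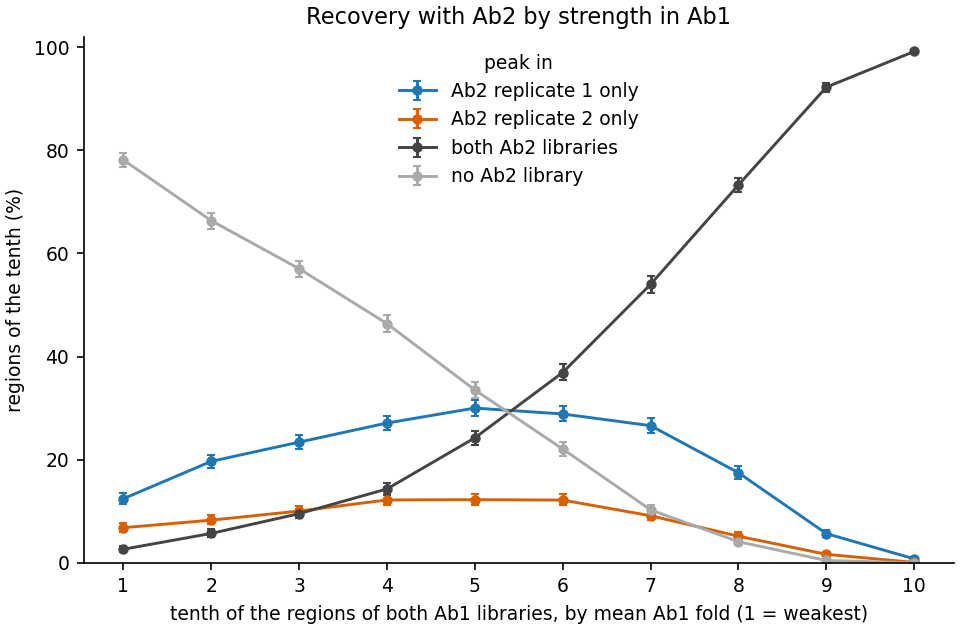
Share of the regions of both Ab1 libraries (y axis, %) with a peak in Ab2 replicate 1 only, Ab2 replicate 2 only, both or neither, over 10 equal classes by mean Ab1 fold (x axis, 1 the weakest). Points are shares and bars are 95% Wilson intervals. Both single-library curves are highest in the middle classes, at 30.0% and 12.2% in class 5.

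In both Ab1 lists the members lay between the regions of all 4 libraries and those without Ab2. In Ab1 replicate 1 the median fold was 5.50 (quartiles 4.63 and 6.50) in the replicate 1 subset and 4.95 (4.17 and 5.94) in the replicate 2 subset, against 7.59 for regions of all 4 libraries and 4.36 for those without Ab2. In Ab1 replicate 2 the order of the subsets was the opposite. There the median was 4.17 (3.54 and 4.90) in the replicate 1 subset and 4.42 (3.81 and 5.16) in the replicate 2 subset, against 5.96 and 3.79. The quartile ranges of the subsets overlapped in both libraries. Each subset was thus the higher of the pair, by its median, in the Ab1 library that carries the same replicate number as the Ab2 library with the peak. Ranked by fold over the regions of both Ab1 libraries, 58.5% (57.4 to 59.7) of the replicate 1 subset stood higher in Ab1 replicate 1 than in Ab1 replicate 2. Of the replicate 2 subset 37.2% (35.5 to 39.0) did so, against 50.3% (49.5 to 51.0) of the regions of all 4 libraries and 44.5% (43.6 to 45.4) of those without Ab2.

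The crossing in fold came with a crossing in background, and the numbers of fragments hardly differed between the subsets. At the Ab1 replicate 1 summit both subsets had a median of 30 fragments, and at the Ab1 replicate 2 summit they had 35 and 34. The median background at the Ab1 replicate 1 summit was 4.58 in the replicate 1 subset and 5.18 in the replicate 2 subset. At the Ab1 replicate 2 summit it was 6.19 and 5.85. Background is on the scale of each library, so its level is compared only within a library. Ratios between libraries carry those scales, so a ratio is compared only between groups of regions or by its spread. The ratio of the background in Ab1 replicate 1 to that in Ab1 replicate 2 had a median of 0.734 (quartiles 0.611 and 0.837) in the replicate 1 subset and 0.842 (0.739 and 1.01) in the replicate 2 subset. Regions of all 4 libraries and regions without Ab2 lay between them, at 0.763 and 0.780. The ratio of fragments was 0.871 in the replicate 1 subset and 0.870 in the replicate 2 subset.

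**Figure D2:**
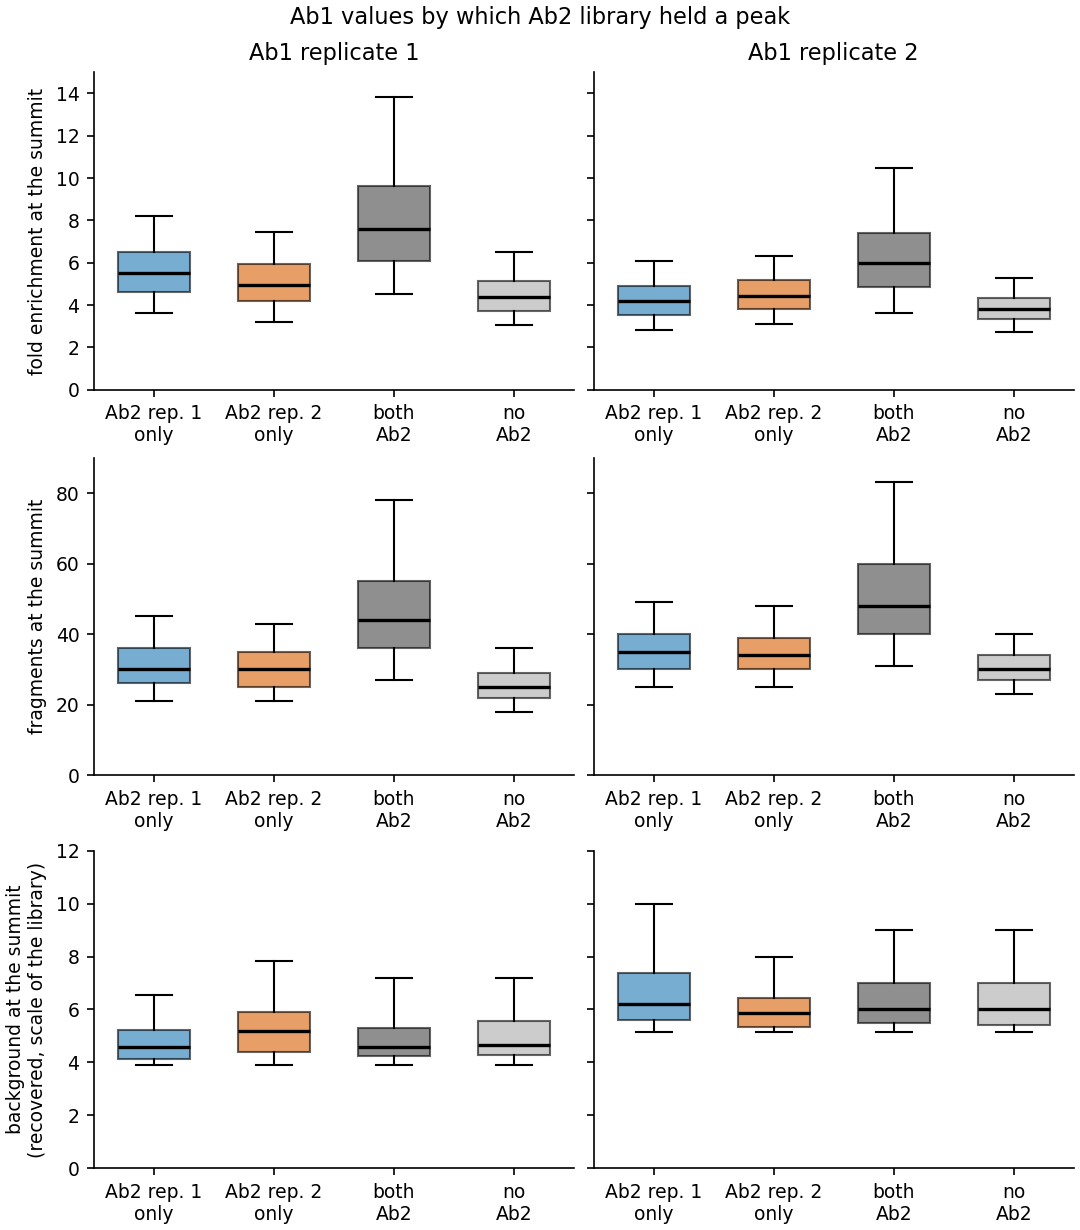
Fold enrichment (top), fragments (middle) and background (bottom) at the summit in Ab1 replicate 1 (left) and Ab1 replicate 2 (right), for regions with a peak in Ab2 replicate 1 only, Ab2 replicate 2 only, both and neither. Lines are medians, boxes quartiles and whiskers the 5th and 95th percentiles. The 2 member subsets have like fragments, with medians of 30 and 30 on the left, while their backgrounds cross between the libraries.

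The share of each subset moved with the ratio of Ab1 backgrounds. The regions of both Ab1 libraries were cut into 4 equal classes by this ratio. In the class with the lowest ratio, where Ab1 replicate 1 had the lower background relative to replicate 2, 87.1% (85.9 to 88.3) of 2885 members had their peak in Ab2 replicate 1. The share was 74.8% in class 2, 68.1% in class 3 and 50.2% (48.1 to 52.2) of 2290 members in the highest. Over all regions of both Ab1 libraries, the replicate 1 subset went from 26.8% of the lowest class to 12.2% of the highest, and the replicate 2 subset from 3.95% to 12.2%. Regions of all 4 libraries stayed between 40.7% and 41.9%, and those without Ab2 went from 27.4% through 31.2% and 33.9% to 34.8%. Sorted by the ratio of Ab1 fragments in place of background, the replicate 1 subset made up 71.0%, 71.2%, 71.2% and 71.3% of the members in the 4 classes. Among regions between the quartiles of mean Ab1 fold the lowest and highest classes of the background ratio gave 86.7% and 51.8%, and with lists of equal length 73.8% and 29.8%. These classes were chosen after the data were seen. They are also not independent of how the members were sorted, since an Ab2 peak is called over its own background. That background was often in a near-fixed ratio to that of the Ab1 library of the same number, as given next.

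Backgrounds were closer to a fixed ratio between libraries of the same number than between libraries of different numbers, in the members whose summits nearly coincided. Over the 512 members of the replicate 1 subset whose Ab2 and Ab1 replicate 1 summits lay at most 5 bp apart, the Ab2 background was 0.602 times that of Ab1 (quartiles 0.602 and 0.617). Against Ab1 replicate 2 the ratio spread from 0.354 to 0.494 between quartiles (507 members). For the replicate 2 subset the ratio to Ab1 replicate 2 was 0.431 at both quartiles (189 members), and that to Ab1 replicate 1 spread from 0.430 to 0.591 (192 members). Within 2% of the median ratio were 54.7% and 59.8% of the members for libraries of the same number. For libraries of different numbers the shares were 5.92% and 7.29%. The other members departed from the median ratio by more than 2%. Whether background had a part in which Ab2 library held a peak was not tested.

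**Figure D3:**
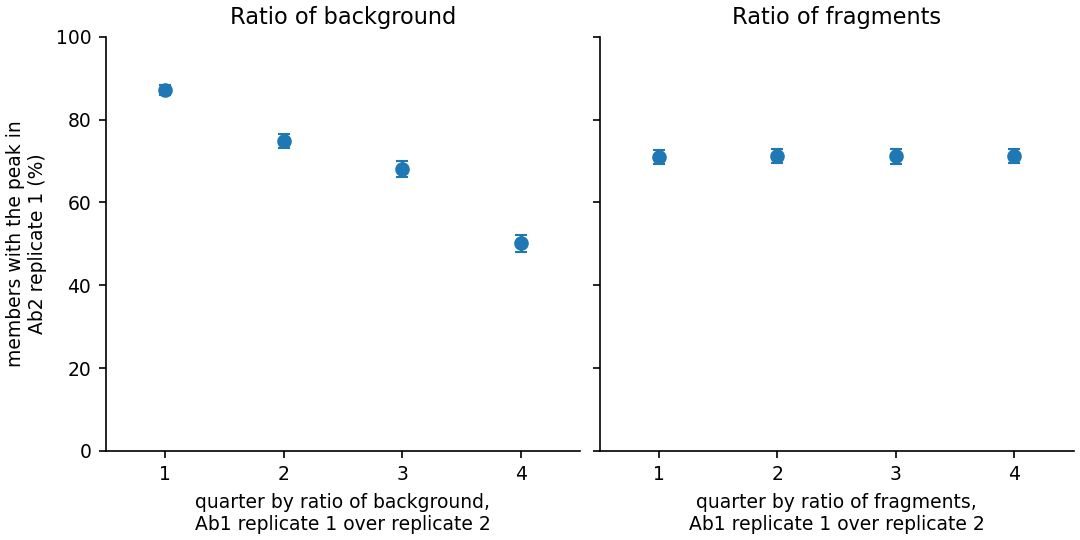
Share of the members whose single Ab2 peak was in replicate 1 (y axis, %), in 4 equal classes of the ratio between the Ab1 libraries of background (left) and of fragments (right) at the summit (x axis, 1 the lowest ratio). Points are shares and bars 95% Wilson intervals. The share goes from 87.1% to 50.2% with background and stays between 71.0% and 71.3% with fragments.

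The single Ab2 peak of a member stood in the lower part of its own list. In the replicate 1 subset its median fold was 4.71 (quartiles 4.12 and 5.39), with 17 fragments at the summit (15 and 19). The same library had a median fold of 5.92 and 23 fragments in the regions of all 4 libraries. The replicate 2 subset had a median fold of 4.64 (4.11 and 5.25), with 16 fragments (14 and 18), against 5.51 and 20 in the regions of all 4 libraries. By p, the median member stood at percentile 35.4 of the Ab2 replicate 1 list and at 29.8 of the Ab2 replicate 2 list. The median −log10 q was 6.25 in the replicate 1 subset and 5.64 in the replicate 2 subset, both clear of the threshold of 2 that the lists carry. In the replicate 1 subset 2.63% (2.29 to 3.03) had a −log10 q under 3 and 28.1% under 5. The shares were 3.70% (3.07 to 4.44) and 38.3% in the replicate 2 subset. How close the other Ab2 library came to a peak cannot be read from lists that hold called peaks alone.

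**Figure D4:**
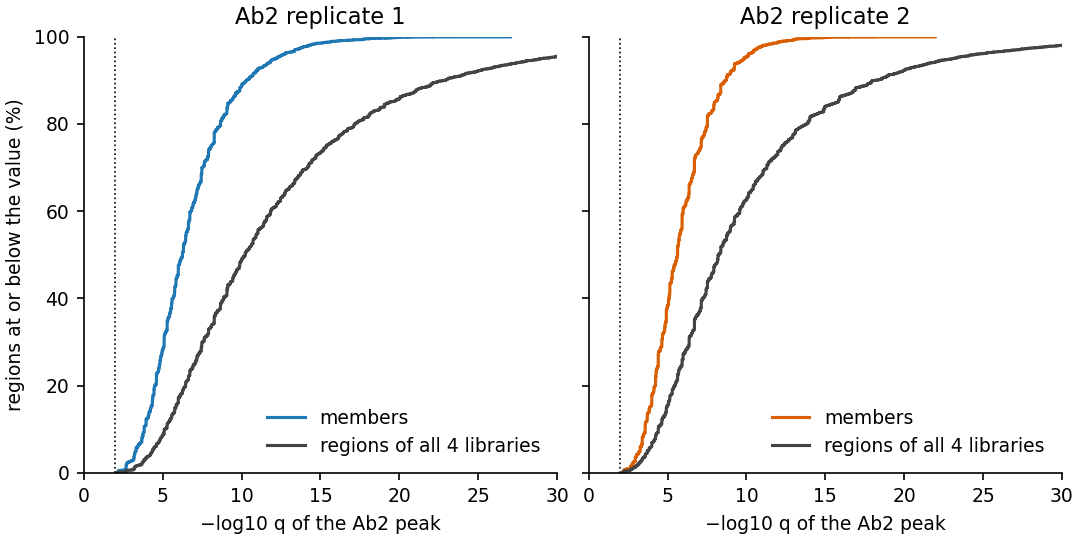
Cumulative share of regions (y axis, %) by −log10 q of the Ab2 peak (x axis), for members (coloured) and regions of all 4 libraries (dark), in Ab2 replicate 1 (left) and Ab2 replicate 2 (right). The dotted line marks the threshold of 2. The members' curves rise earlier, with medians of 6.25 and 5.64 against 10.2 and 8.22.

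The members just inside the threshold had Ab2 peaks with a −log10 q of 2.12 to 2.17 in the replicate 1 subset. They were chromosome 6 (5460585 to 5461038), chromosome 1 (52315508 to 52316276) and chromosome 2 (42263211 to 42263653), with Ab2 folds of 3.09, 2.92 and 2.92. Their Ab1 peaks had a −log10 q of 12.9, 7.70 and 8.85 in Ab1 replicate 1 and of 3.38, 7.73 and 8.80 in Ab1 replicate 2, so that the region on chromosome 6 was weak in that library too. Those of the replicate 2 subset were chromosome 2 (12313536 to 12314002), chromosome 9 (44329093 to 44329783) and chromosome 7 (37426802 to 37427400), each with a −log10 q of 2.16 and with Ab2 folds of 2.67, 2.61 and 2.74. Just outside were regions of all 4 libraries whose weaker Ab2 peak barely passed. On chromosome 15 from 524315 to 524617 the Ab2 −log10 q was 2.03 in replicate 1 and 2.25 in replicate 2. On chromosome 1 from 47655031 to 47655571 and chromosome 3 from 35644460 to 35645473 the Ab2 replicate 2 peak had 2.16, while that of replicate 1 had 8.67 and 13.9.

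The strongest members fell in the class of highest mean Ab1 fold, where 99.1% of the regions had a peak in all 4 libraries, or just below it. Within the replicate 1 subset the highest mean Ab1 fold belonged to chromosome 17 from 4821697 to 4822122, with 11.1 and 7.98 in Ab1 replicates 1 and 2 and 9.66 in Ab2 replicate 1. Its Ab2 peak rested on 42 fragments and had a −log10 q of 27.1, yet Ab2 replicate 2 had no peak nearer than 1.78 kb. The next, on chromosome 16 from 1596110 to 1596512, had 11.8 and 7.18 with Ab1 and a weaker Ab2 peak of 4.80. The third was on chromosome 13 from 38660638 to 38661653, where the Ab1 folds were 11.7 and 7.15 and the Ab2 fold was 8.50. Chromosome 2 from 14945496 to 14945998 followed with 11.2 and 7.35 in Ab1 and 5.05 in Ab2. The fifth, on chromosome 9 from 36858522 to 36859059, had 11.7 and 6.82 in Ab1 and 8.70 in Ab2. The fold was higher in Ab1 replicate 1 than in Ab1 replicate 2 in all 5, as it was in most regions: the ratio of the folds had a median of 1.28 (quartiles 1.06 and 1.54) in the regions of all 4 libraries. By Ab2 fold the first member was on chromosome 15 from 2464374 to 2464839, at 10.8 with Ab2 replicate 1 and 9.37 and 4.98 with the Ab1 libraries. The second by that measure was the region on chromosome 17 above. The third, on chromosome 19 from 30388946 to 30389427, had 9.59 with Ab2 and 6.96 and 4.53 with Ab1.

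The strongest member of the replicate 2 subset lay on chromosome 20 from 43084177 to 43084641, with 12.2 and 7.18 in Ab1 replicates 1 and 2 and 4.97 in Ab2 replicate 2. A peak of Ab2 replicate 1 lay 439 bp away from it. The second, on chromosome 7 from 8683445 to 8683778, had 8.84 and 8.75 in Ab1 and 7.14 in Ab2. On chromosome 11 from 14850786 to 14851221 the values were 9.29 and 8.18 in Ab1 and 5.73 in Ab2. Chromosome 6 from 43324532 to 43325314 had 8.31 and 8.42 in Ab1 and 6.70 in Ab2, and chromosome 7 from 42710541 to 42710930 had 9.02 and 7.48 in Ab1 and 4.93 in Ab2. The highest Ab2 fold of this subset was 9.50, on chromosome 4 from 49279471 to 49279921, where the Ab1 folds were 6.54 and 6.28. It was followed by 8.80 on chromosome 6 from 1612556 to 1612891, with 6.42 and 5.90 in Ab1. The third was 8.42 on chromosome 1 from 55162778 to 55163351, with 7.54 and 7.98 in Ab1.

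Members were intermediate in length as well. The median region spanned 454 bp (quartiles 364 and 595.5) in the replicate 1 subset and 424 bp (343 and 554) in the replicate 2 subset, against 602 bp for regions of all 4 libraries and 371 bp for those without Ab2. Regions over 1000 bp made up 2.98% (2.61 to 3.40) and 2.26% (1.78 to 2.86) of the subsets and 14.2% of the regions of all 4 libraries. A merged region takes the outer edges of all its peaks, so the lengths of single peaks are the closer comparison. The Ab1 replicate 1 peak had a median of 419 bp in the replicate 1 subset and 381 bp in the replicate 2 subset, and the Ab1 replicate 2 peak 298 and 304 bp. The single Ab2 peak was shorter, at 218 and 177 bp, or 50.8% and 43.7% of the length of its region at the median.

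The longest member of the replicate 1 subset spanned 2228 bp on chromosome 7 from 3559343 to 3561570, and its Ab2 summit lay 3 and 19 bp from the Ab1 summits. Those of 2024 bp on chromosome 3 from 40307442 to 40309465 and of 1845 bp on chromosome 16 from 1118188 to 1120032 had their Ab2 summit 807.5 and 1057 bp from the Ab1 summits on average. On chromosome 3 the distances to Ab1 replicates 1 and 2 were 1219 and 396 bp, so the Ab1 summits were themselves apart. On chromosome 16 they were 1096 and 1018 bp. These regions held 3 and 2 peaks of Ab1 replicate 2 and 2 and 2 of Ab2. Only the strongest peak of each library gave a summit. The longest of the replicate 2 subset spanned 1859 bp on chromosome 6 (18870285 to 18872143), 1628 bp on chromosome 8 (39426962 to 39428589) and 1553 bp on chromosome 3 (41613422 to 41614974). In the regions of 2024 and 1845 bp a single Ab1 replicate 1 peak of 1977 and 1845 bp spanned nearly all or all of the region, so that the summits were apart within 1 Ab1 peak.

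In most members the summits of the antibodies lay within 100 bp of each other. The Ab2 summit lay a median of 48 bp (quartiles 21 and 92) from that of Ab1 replicate 1 and 45 bp (20 and 93) from that of Ab1 replicate 2 in the replicate 1 subset. For the replicate 2 subset the distances were 46 bp (21 and 87) and 44 bp (20 and 85). The summits of the Ab1 libraries themselves were a median of 41 and 40 bp apart in the subsets, so that the distance between antibodies was only a few bp above that within Ab1. In the regions of all 4 libraries the distances between antibodies were 37 to 40 bp. Summits lay within 100 bp of Ab1 replicate 1 in 77.9% (76.9 to 78.8) of the replicate 1 subset and in 79.9% (78.4 to 81.3) of the replicate 2 subset. The Ab2 summit fell inside the strongest peak of both Ab1 libraries in 89.0% (88.2 to 89.7) and 91.2% (90.2 to 92.2). The signed distance had medians of −2 to 1 bp over the subsets and Ab1 libraries. The length of a region bounds the distance between its summits, so shorter members had closer summits in part by construction. The mean distance to the Ab1 summits was 39.5 and 40.5 bp among those up to the median length of each subset. Among those above it the distance was 69.5 and 61 bp.

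Few members had summits far apart. The mean distance exceeded 500 bp in 41 regions of the replicate 1 subset (0.569%, 0.419 to 0.770) and in 8 of the replicate 2 subset (0.274%, 0.139 to 0.540). The largest in the replicate 1 subset were the 1057 bp on chromosome 16 given above, 895.5 bp on chromosome 10 from 24630188 to 24631500 and 877.5 bp on chromosome 14 from 8710008 to 8711261. Those of the replicate 2 subset were 766 bp on chromosome 8 from 5700907 to 5701909, 608 bp in the long region of chromosome 8 given above and 588.5 bp on chromosome 9 from 45103355 to 45104209.

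Members followed the same course along the chromosomes as the other regions of both Ab1 libraries. The 20% of each chromosome next to either of its ends together held 70.1% (69.0 to 71.2) of the replicate 1 subset and 70.7% (69.1 to 72.4) of the replicate 2 subset. These shares were 70.5% for regions of all 4 libraries and 70.2% for those without Ab2, and the intervals overlapped. With each chromosome cut into 10 equal stretches, the first and the last held 19.9% and 20.5% of the replicate 1 subset and 20.5% and 21.1% of the replicate 2 subset, and stretch 6 held 2.22% and 2.44%. By density, chromosome 11 led with 542 members or 15.6 per Mb, followed by chromosome 13 with 700 or 15.3 and chromosome 17 with 555 or 13.3, and chromosome 14 was the sparsest with 403 or 8.23. As a share of the regions of both Ab1 libraries on the chromosome, members made up 28.4%, 25.9%, 26.4% and 28.2% on these 4, and from 24.8% (chromosome 6) to 28.8% (chromosome 12) over all 20, so that their density followed that of the Ab1 regions. Chromosome 4 held 499. Both subsets were found on every chromosome, and the replicate 1 subset made up 68.7% (chromosome 20) to 75.8% (chromosome 5) of the members. Of the 20 intervals, that of chromosome 5 (71.8 to 79.4) did not hold the share over all members. Chromosome lengths were read from the end of the last peak in the lists, since no genome of their build was used.

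The nearest region of all 4 libraries lay at like distances from both subsets. The median distance between edges was 8570 bp (quartiles 2377.5 and 23160) from the replicate 1 subset and 8874 bp (2349.25 and 24276.8) from the replicate 2 subset. Regions without Ab2 lay 8693 bp away, and a region of all 4 libraries had its nearest other one at 7111 bp. Within 1 kb of a region of all 4 libraries were 13.7% (12.9 to 14.5) of the replicate 1 subset and 14.5% (13.2 to 15.8) of the replicate 2 subset, against 13.6% of those without Ab2 and 17.2% of the regions of all 4 libraries themselves. Within 10 kb these shares were 53.8%, 53.2%, 53.5% and 58.0%. These values of both subsets were closer to those of the regions without Ab2 than to those of the regions of all 4 libraries. When an Ab2 peak had to overlap a peak of each Ab1 library by at least 50% of both lengths, fewer regions counted as found in all 4 libraries, and the medians were 30975.5 and 32242.5 bp.

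**Figure D5:**
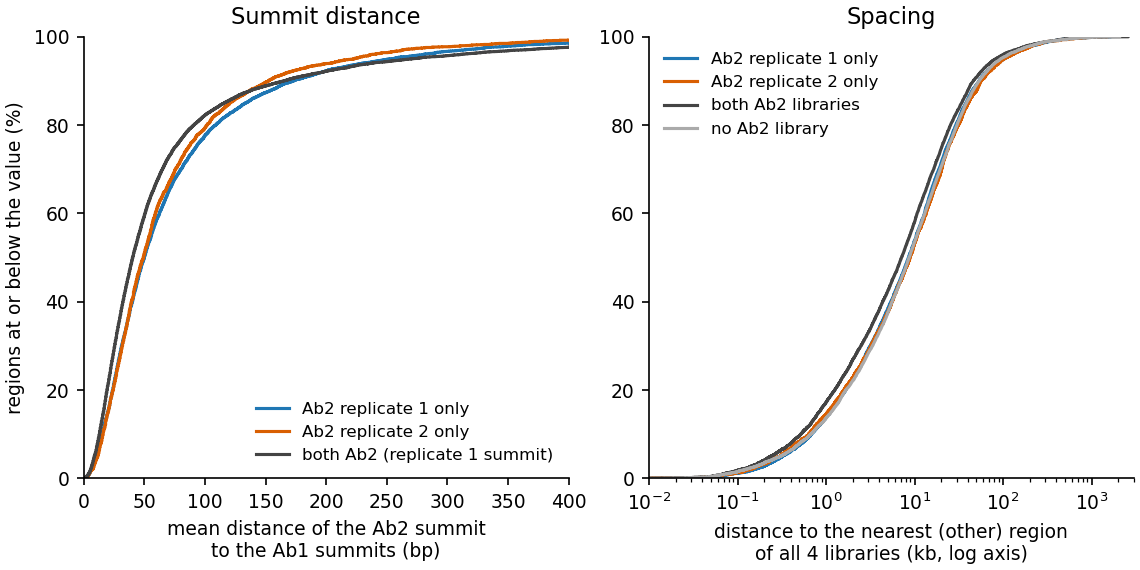
Cumulative share of regions (y axes, %) by the mean distance of the Ab2 summit to the Ab1 summits (left, bp) and by the distance to the nearest other region of all 4 libraries (right, kb on a log axis), for both member subsets, regions of all 4 libraries and, on the right, regions without Ab2. The subsets' medians are 50 and 49 bp on the left and 8570 and 8874 bp on the right.

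At the near end, members abutted regions of all 4 libraries. In the replicate 1 subset 5 bp separated the member on chromosome 12 from 38469754 to 38470160 from such a region, and 7 and 12 bp those on chromosome 16 from 2607108 to 2607482 and chromosome 7 from 43570451 to 43570833. The gaps were 1, 6 and 11 bp in the replicate 2 subset, at chromosome 3 (2122811 to 2123637), chromosome 14 (3168305 to 3168883) and chromosome 13 (35227889 to 35228390). At the far end, a member of the replicate 1 subset on chromosome 2 from 24522082 to 24522496 lay 1651 kb from the nearest region of all 4 libraries. Its folds were 5.50, 5.29 and 5.05 in Ab1 replicates 1 and 2 and Ab2 replicate 1. Those on chromosome 20 from 13529305 to 13529637 and chromosome 14 from 15787179 to 15787853 lay 1520 and 1384 kb away. Distances reached 1512, 1277 and 1197 kb in the replicate 2 subset, at chromosome 2 (23410905 to 23411278), chromosome 12 (28159953 to 28160476) and chromosome 14 (39179251 to 39179703).

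Peaks of the Ab2 library without a peak in the member lay within 500 bp of few members. The rule leaves out any such peak that overlaps the member, so scarcity at short range is partly built in. In the replicate 1 subset the nearest peak of Ab2 replicate 2 lay a median of 6477 bp away, and 6.20% (5.67 to 6.78) of the members had one within 500 bp. From the replicate 2 subset the nearest peak of Ab2 replicate 1, the longer list, lay 4623 bp away, and 9.96% (8.93 to 11.1) had one within 500 bp. Of the 447 members of the replicate 1 subset with such a close peak, 75.2% had it in a region of all 4 libraries. In 17.4% it lay in a member of the other subset. Of the 291 of the replicate 2 subset these shares were 60.5% and 27.1%. Over all regions with a peak of Ab2 replicate 2, 79.1% were regions of all 4 libraries and 14.9% were of the replicate 2 subset. Over those with a peak of Ab2 replicate 1, 59.8% were regions of all 4 libraries and 27.9% were of the replicate 1 subset. The shares among close peaks were thus near those of the whole lists. By distance to a region of all 4 libraries, close spacing was about as frequent in the members as in regions without Ab2. Within 500 bp of such a region were 7.51% of the replicate 1 subset, 8.36% of the replicate 2 subset and 7.90% of the regions without Ab2. Another region of all 4 libraries lay within 500 bp of 9.61% of the regions of all 4 libraries themselves.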

How the data were processed

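ChIP-seq peak lists of 4 libraries (Ab1 and Ab2, 2 replicates each) were analysed, grouped by the sample titles. Reads were aligned with Bowtie 0.12.7 and peaks were called with MACS2 (no version given), per the submitters' processing notes. The sources used here give no genome build, and coordinates are 1-based positions of the deposited lists. Each library had its own list, and peak names carry a q of 0.01. The fold enrichment, a ratio of pile-up to background at the summit, was deposited by the authors, as were the −log10 p and −log10 q; the integer score deposited by the authors was not used.

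Intervals sharing at least 1 base were merged with pandas 2.3.3. The strongest peak by fold stood for a library in a region. Fragments and background at each summit were recovered with scipy 1.17.1, from the fold, (pile-up + 1)/(background + 1), and the Poisson upper-tail p. This met the deposited p within 0.001 for 100% of peaks in each list, with a scale of 0.881 for Ab1 replicate 2, and was checked on simulated peaks. Shares carry 95% Wilson intervals, and no test was run, since peak presence chose the members. Depth in reads is unknown, and median summits of 16 to 17 Ab2 fragments limit the precision of single folds.

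The replicate numbers pair the libraries: the design text gives each biological replicate both antibodies, and, where summits lay at most 5 bp apart, 54.7% and 59.8% of backgrounds were within 2% of the median ratio between same-number libraries, against 5.92% and 7.29% between others. The members and measures were chosen with earlier results of these data known. Named regions were, per subset, the 5 with the highest mean Ab1 fold, and 3 each by highest Ab2 fold, lowest Ab2 −log10 q (beside 3 regions of all 4 libraries with the lowest weaker Ab2 −log10 q), length, summit distance, and smallest and largest distance to a region of all 4 libraries. Alternatives tried were equal list length, a minimum −log10 q of 5 or of 10, summits within 150 bp, a 50% reciprocal overlap, chromosomes only, other distance and end measures, and each Ab1 library left out. Gene annotation and genome sequence were not used here.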

Additional observations from a re-analysis of the deposited data

How the results depend on the processing

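Of 94 alternatives, 32 kept a result and 62 moved it. A count was kept within 1.5 times, a share within its 95% Wilson interval, and a median within 1 SD between the 2 libraries or subsets. That SD was as small as 0.707 bp for summit distances and 0.0434 for Ab2 folds, so small changes count as moved. The cause of the changes was not tested, except that stricter lists drop weak peaks by construction. In what follows, pairs are the replicate 1 and the replicate 2 subset.

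A −log10 q of at least 5 kept the number of members (8960), gave the replicate 1 subset 72.2% of them and moved the Ab2 fold to 5.10 and 5.125, the Ab2 −log10 q to 7.445 and 6.71, the length to 480 and 451 bp, the summit distance to 44 and 44 bp and the distance to a region of all 4 libraries to 11469 and 11391.5 bp. The replicate 2 subset then had Ab1 folds of 5.37 and 4.80 in Ab1 replicates 1 and 2. A −log10 q of at least 10 gave 4717 members and 74.4%. These settings and equal list length cut the Ab1 lists as well, so the base of the counts changed. Equal list length gave 3204 members and 51.9%, Ab1 replicate 1 folds of 6.76 and 6.39, an Ab1 replicate 2 fold of 5.32 in the replicate 2 subset, Ab2 folds of 5.38 and 4.96, −log10 q of 8.25 and 6.37, lengths of 483 and 511 bp, summit distances of 36.5 and 43.5 bp, distances of 10792 and 10255 bp and 72.7% of the replicate 2 subset in the outer 20%. The length of the replicate 2 subset was then above that of the replicate 1 subset. In the lowest and highest of the 4 classes of the background ratio it gave 73.8% and 29.8%.

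Summits within 150 bp gave 69.5%, Ab2 folds of 4.76 and 4.69, summit distances of 42.5 and 42.5 bp, distances of 9913 and 9909 bp and 84.9% and 48.0% in those classes. The 50% reciprocal overlap, under which regions of all 4 libraries can become members, gave 77.9%, Ab1 replicate 1 folds of 6.50 and 5.88, an Ab1 replicate 2 fold of 5.04 in the replicate 2 subset, Ab2 folds of 5.37 and 5.16, −log10 q of 8.27 and 7.00, summit distances of 41 and 41.5 bp and distances of 30975.5 and 32242.5 bp. Between midpoints the distances were 9126.5 and 9478.5 bp. The outer 10% held 40.5% and 41.5%, and the outer 30% held 86.3% and 86.1%.

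Leaving out either Ab1 library gave 10538 to 12442 members and 70.4 to 73.3% in the replicate 1 subset. Leaving out an Ab2 library gives no value, since no region can then lack 1 of 2. Over all members, 52.4% ranked higher in Ab1 replicate 1. The alternative by replicate number took another measure, and 59.8% of the members ranked higher in the Ab1 library of the same number. It counts as moved, although these shares measure different things and no block was fitted. The alternatives for the classes of the background ratio were chosen after seeing the data, and the planned ones for promoters and motifs were not run. Depth limits single regions, since 1 more or fewer fragment moves a summit of 16 or 17.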

Other observations

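Members of both subsets were mixed along the chromosomes. The nearest other member belonged to the replicate 1 subset in 71.0% (69.9 to 72.0) of the replicate 1 subset and in 71.2% (69.5 to 72.8) of the replicate 2 subset, and that subset made up 71.2% of all members. The nearest member of the other subset lay a median of 58.8 kb from the replicate 1 subset and 21.7 kb from the replicate 2 subset. The other subset held 2921 regions in the first case and 7211 in the second, so these distances do not compare the placing of the subsets.

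As a share of the Ab2 lists, the replicate 1 subset was 27.9% (27.3 to 28.4) of the 25883 regions with a peak of Ab2 replicate 1, and the replicate 2 subset was 14.9% (14.4 to 15.4) of the 19571 regions with a peak of Ab2 replicate 2. None of the members had a background of 10 times the library median or more at the summit of the strongest peak of any of the 4 libraries (0 of 10132 in each Ab1 library, 0 of 7211 and 0 of 2921 in the Ab2 libraries). The same held for the regions of all 4 libraries (0 of 15473 in each library). It also held for those without Ab2 (0 of 11956 in each Ab1 library), so it does not set the members apart.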
